A study of Mus musculus with 2 samples.

Results

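The miRNAs miR-148a, miR-148b and miR-152 form a family of 3, and each is cut from its own hairpin precursor into a 5p and a 3p arm. The 6 arms were looked up by name in the miRNA tables of serum extracellular vesicles (EVs), the membrane particles that cells shed into blood, and all 6 were found among 1847 listed miRNAs. The tables come from male mice injected with tamoxifen at 7 weeks of age (100 mg/kg on 5 days) and examined on day 3 after the final dose. The iFIRKO-labelled library comes, per its label, from mice of the genotype Adipoq-CreERT2; Insr flox/flox, in which the adiponectin promoter drives an inducible Cre recombinase that deletes the insulin receptor in adipocytes. The genotype of the control-labelled library is WT per the labels, whereas the methods of the study describe Insr flox/flox mice without Cre. Both groups received tamoxifen. The libraries are named by their labels, which could not be checked against the deletion because no listed miRNA reports it. The labels are in doubt. The study describes most EV-miRNAs as lower and the erythroid miRNAs it followed up as higher in iFIRKO mice. In the tables as labelled these erythroid miRNAs run the other way. So do most listed miRNAs on the scale that the authors deposited, with 1627 higher and 220 lower in the iFIRKO-labelled library. That direction did not hold for the 118 miRNAs whose counts averaged 1000 or more, where 48 were higher and 70 lower. Whether the tables or labels were exchanged cannot be told from the sources used here. If they were, every ratio below is inverted and higher reads as lower, while comparisons of miRNAs within a library hold for the library with the other label. Each group had 1 library, which the study prepared from pooled serum of several mice, so no spread between animals was measured and no test between genotypes was possible.

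A mature miRNA guides the silencing complex to mRNAs that pair with its seed, the bases 2 to 8 from the 5′ end. The 3p arms of miR-148a, miR-148b and miR-152 are the usual guide strands of this family. They share their seed and are known to repress the DNA methyltransferase Dnmt1, and miR-148a is known for its high level in liver, where it represses the LDL receptor and the cholesterol exporter Abca1, and for promoting adipocyte differentiation. In the study miR-148a-3p served as a reference for quantitative RT-PCR of serum EV-miRNAs, beside a spike-in of cel-miR-39-3p.

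The depth was 3817902 counts in the control-labelled library and 2233498 counts in the iFIRKO-labelled library, a 1.71-fold difference. Levels are given in counts per 1000000 of that depth (CPM), and ratios are the iFIRKO level over the control level on the scale that the authors deposited. Intervals are 95% intervals for counting error alone. All 6 arms lay above the floor of 10 counts, below which the tables give no exact value.

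The 3p arms are shown first because their near identity decides how well they can be told apart. Sequences are from RefSeq (GRCm38) and all 6 arms were matched by name. Capitals mark the seed.
mmu-miR-148a-3p: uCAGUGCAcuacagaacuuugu
mmu-miR-148b-3p: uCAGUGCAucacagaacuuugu
mmu-miR-152-3p: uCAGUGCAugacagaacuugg

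All 3 guide strands carry the seed CAGUGCA. Positions were counted from 1 at the 5′ end. From miR-148a-3p to miR-148b-3p the substitutions are C9U and U10C, and from miR-148a-3p to miR-152-3p they are C9U, U10G and U20G. From miR-148b-3p to miR-152-3p they are C10G and U20G, and miR-152-3p is 21 bases long whereas the others have 22. Reads of the 3 arms are therefore separated by 3 positions (9, 10 and 20). How reads with a mismatch at these positions were assigned is not given in the sources used here, so the split among the 3 arms is less certain than their sum.

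The 5p arms are shown because they do not all share a seed.
mmu-miR-148a-5p: aAAGUUCUgagacacuccgacu
mmu-miR-148b-5p: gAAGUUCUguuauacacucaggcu
mmu-miR-152-5p: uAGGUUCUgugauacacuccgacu

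The 5p arms of miR-148a and miR-148b share the seed AAGUUCU, and miR-152-5p has AGGUUCU, which differs by A3G. Without gaps the 5p arms of miR-148a and miR-148b were 59.1% identical, against 90.9% for their 3p arms. The 5p arms of miR-148b and miR-152 were 79.2% identical.

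The hairpins are shown to place both arms in their precursors, with the 5p and then the 3p arm in capitals.
Mir148a: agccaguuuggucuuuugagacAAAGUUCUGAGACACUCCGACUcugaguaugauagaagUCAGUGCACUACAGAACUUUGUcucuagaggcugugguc
Mir148b: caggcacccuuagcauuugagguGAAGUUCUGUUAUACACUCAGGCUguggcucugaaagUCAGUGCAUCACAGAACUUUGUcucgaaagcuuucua
Mir152: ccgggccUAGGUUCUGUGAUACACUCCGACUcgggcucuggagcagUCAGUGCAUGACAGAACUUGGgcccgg

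The 3 hairpins lie on different chromosomes of GRCm38. Mir148a lies on chromosome 6 from 51269812 to 51269910 on the minus strand, outside other annotated genes, and the nearest gene is the long non-coding RNA Gm32479 at 13622 bp. Mir148b occupies 103285125 to 103285221 of chromosome 15 (plus strand) and sits in an intron of Copz1, transcribed in the same direction. Mir152 occupies 96850393 to 96850465 of chromosome 11 (plus strand) and sits in an intron of Copz2, also in the same direction. Copz1 and Copz2 encode zeta subunits of the COPI vesicle coat, so 2 of the 3 hairpins sit in paralogous host genes.

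The 3p arms were then compared between the libraries. Together they held 34365 counts (9001 CPM, 0.900% of the library) in the control-labelled library and 22264 counts (9968 CPM, 0.997%) in the iFIRKO-labelled library. The ratio of the sums was 1.11 (1.09 to 1.13) on the deposited scale, but 0.921 when the libraries were scaled by the median of ratios and 0.613 with TMM scaling. The direction of the family sum thus depended on the scaling, and with exchanged labels the deposited ratio would be 0.903. These scalings lowered every log2 ratio by a shift of 0.27 and 0.85, respectively, and the median log2 ratio of all listed miRNAs on the deposited scale was 0.88.

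miR-148a-3p, the most abundant arm, had 24524 counts (6423 CPM) in the control-labelled library and 16705 counts (7479 CPM) in the iFIRKO-labelled library. It ranked 33 among the listed miRNAs in the control-labelled library and 27 in the iFIRKO-labelled library. Its ratio was 1.16 (1.14 to 1.19) as deposited, and it was 0.968 with the median of ratios and 0.644 with TMM scaling. The deposited levels therefore differed by more than counting error, in a direction that the scaling reversed.

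miR-148b-3p had 4942 counts (1294 CPM) in the control-labelled library and 2495 counts (1117 CPM) in the iFIRKO-labelled library. Its ratio was 0.863 (0.822 to 0.906), and it stayed below 1 with the median of ratios (0.718) and with TMM scaling (0.477). It was the only 3p arm of the family that was lower in the iFIRKO-labelled library under each scaling tried. With exchanged labels its deposited ratio would be 1.16, and those of miR-148a-3p and miR-152-3p would be 0.859 and 0.935.

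miR-152-3p had 4899 counts (1283 CPM) in the control-labelled library and 3064 counts (1372 CPM) in the iFIRKO-labelled library. Its ratio was 1.07 (1.02 to 1.12) as deposited, and it was 0.889 with the median of ratios and 0.591 with TMM scaling.

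The order of the levels changed below miR-148a-3p. In the control-labelled library the interval of miR-148b-3p (1259 to 1331 CPM) overlapped that of miR-152-3p (1247 to 1320 CPM), so these neighbours did not differ beyond counting error. In the iFIRKO-labelled library they were apart, with 1074 to 1162 CPM for miR-148b-3p and 1324 to 1421 CPM for miR-152-3p. Levels of different miRNAs also carry the ligation preferences of the library kit, whose part in this order was not tested.

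**Figure D1:**
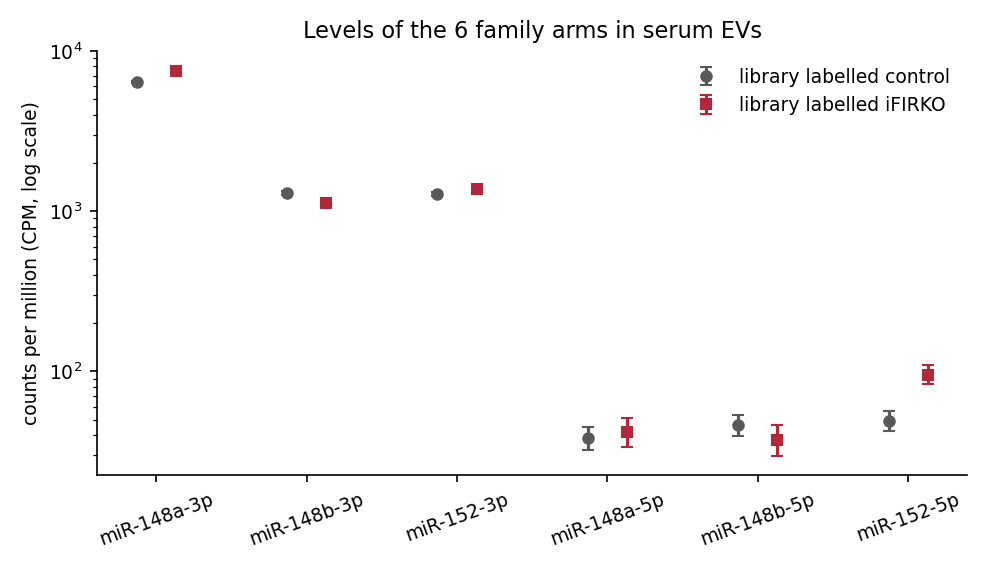
Level of each family arm in CPM (log axis) in the control-labelled library (circles) and the iFIRKO-labelled library (squares), 1 library each, with 95% Poisson intervals for counting error. The 3p arms lie between 1117 and 7479 CPM and the 5p arms between 37.2 and 95.4 CPM, and miR-152-5p shows the widest gap between the libraries, which TMM scaling reduces to a ratio of 1.08.

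Within a library the proportion of one arm to another does not depend on the scaling, and 3 pairs of 3p arms were compared in this way. The miR-148a-3p count was 4.96 times the miR-148b-3p count in the control-labelled library and 6.70 times in the iFIRKO-labelled library, a 1.35-fold difference (1.28 to 1.42). Against miR-152-3p the factors were 5.01 and 5.45, a 1.09-fold difference (1.04 to 1.14). The ratio of miR-148b-3p to miR-152-3p went from 1.01 to 0.814, a factor of 0.807 (0.755 to 0.863). The proportions of all 3 pairs thus differed between these 2 libraries by more than counting error. Pairs of other abundant miRNAs were not compared in this way, so these differences do not set the family apart.

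The make-up of the 3p sum shows the same counts as shares. miR-148a-3p took 71.4% (exact binomial interval 70.9 to 71.8) of the 3p sum in the control-labelled library and 75.0% (74.5 to 75.6) in the iFIRKO-labelled library. The share of miR-148b-3p was 14.4% (14.0 to 14.8) and 11.2% (10.8 to 11.6). The share of miR-152-3p was 14.3% (13.9 to 14.6) and 13.8% (13.3 to 14.2), with intervals that overlapped.

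**Figure D2:**
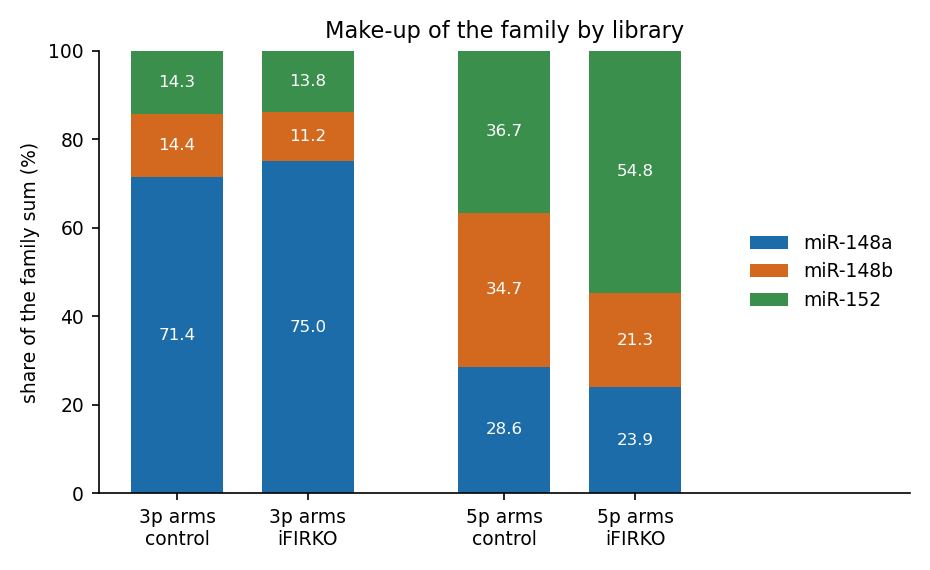
Share (%) of miR-148a, miR-148b and miR-152 in the summed counts of the 3p arms and of the 5p arms, by library. miR-148a makes up 71.4% and 75.0% of the 3p sum, whereas miR-152 grows from 36.7% to 54.8% of the 5p sum.

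The 5p arms, the minor strands, rested on far fewer counts. miR-148a-5p had 146 counts (38.2 CPM) in the control-labelled library and 93 counts (41.6 CPM) in the iFIRKO-labelled library, a ratio of 1.09 whose interval of 0.830 to 1.42 included 1. With the median of ratios its ratio was 0.906 and with TMM scaling 0.602. A difference in miR-148a-5p was not detectable at this depth on the deposited scale.

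miR-148b-5p fell short of a detectable difference on the deposited scale as well. It had 177 counts (46.4 CPM) in the control-labelled library and 83 counts (37.2 CPM) in the iFIRKO-labelled library. The interval of its ratio of 0.802 ran from 0.610 to 1.05. Its ratio was 0.667 with the median of ratios and 0.443 with TMM scaling. These scalings divide ratios by 1.20 and 1.81, which places the whole interval below 1.

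miR-152-5p had 187 counts (49.0 CPM) in the control-labelled library and 213 counts (95.4 CPM) in the iFIRKO-labelled library, a ratio of 1.95 (1.59 to 2.38). It was the only arm of the family above 1.5-fold, and its ratio was 1.62 with the median of ratios and 1.08 with TMM scaling. With exchanged labels its deposited ratio would be 0.514. In the control-labelled library the intervals of the 3 minor arms overlapped, with 32.3 to 45.0, 39.8 to 53.7 and 42.2 to 56.5 CPM for miR-148a-5p, miR-148b-5p and miR-152-5p. In the iFIRKO-labelled library miR-152-5p (83.0 to 109 CPM) stood above the other 5p arms, which overlapped (33.6 to 51.0 and 29.6 to 46.1 CPM).

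These values were read against all listed miRNAs at the threshold of the study, 1.5-fold in either direction. Of the 6 arms, 1 was over 1.5-fold higher in the iFIRKO-labelled library, against 66.3% of the 1847 listed miRNAs, and 0 were over 1.5-fold lower, against 3.03%. These directions follow the labels, and the study describes the opposite one for most EV-miRNAs. With TMM scaling 388 listed miRNAs were higher and 360 were lower, in place of 1225 and 56, and then 5 family arms were lower and 0 higher. Abundant miRNAs, those whose counts in the 2 libraries averaged 1000 or more, include the 3p arms and are a closer background. On the deposited scale 2.54% of the 118 abundant miRNAs were over 1.5-fold higher and 9.32% over 1.5-fold lower. Of the 3 guide strands 0 passed the threshold in either direction. TMM scaling divides every ratio by 1.81, and the upper quartile of the abundant ratios was 1.11 as deposited. Most abundant miRNAs, like the 3 guide strands, were therefore over 1.5-fold lower with TMM scaling.

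Among the 118 abundant miRNAs the median ratio was 0.952, with 48 higher and 70 lower in the iFIRKO-labelled library. Of the others, 20 had a larger ratio than miR-148a-3p and 97 a smaller one. For miR-152-3p the numbers were 35 and 82, and for miR-148b-3p 74 and 43. These places do not depend on the scaling.

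The 5p arms have like-abundant miRNAs with larger ratios. The 439 miRNAs with a mean count within 2-fold of that of miR-148a-5p had a median ratio of 1.88, and 395 of them had a larger ratio than miR-148a-5p. For miR-148b-5p 392 of 403 such miRNAs had a larger ratio, and their median was 1.85. For miR-152-5p 75 of 239 had a larger ratio, and their median was 1.56. The ratio of 1.95 of miR-152-5p therefore lay within the middle range of its neighbours in abundance, whose upper quartile was 2.06, whereas the other 5p arms lay near the lower end of theirs.

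**Figure D3:**
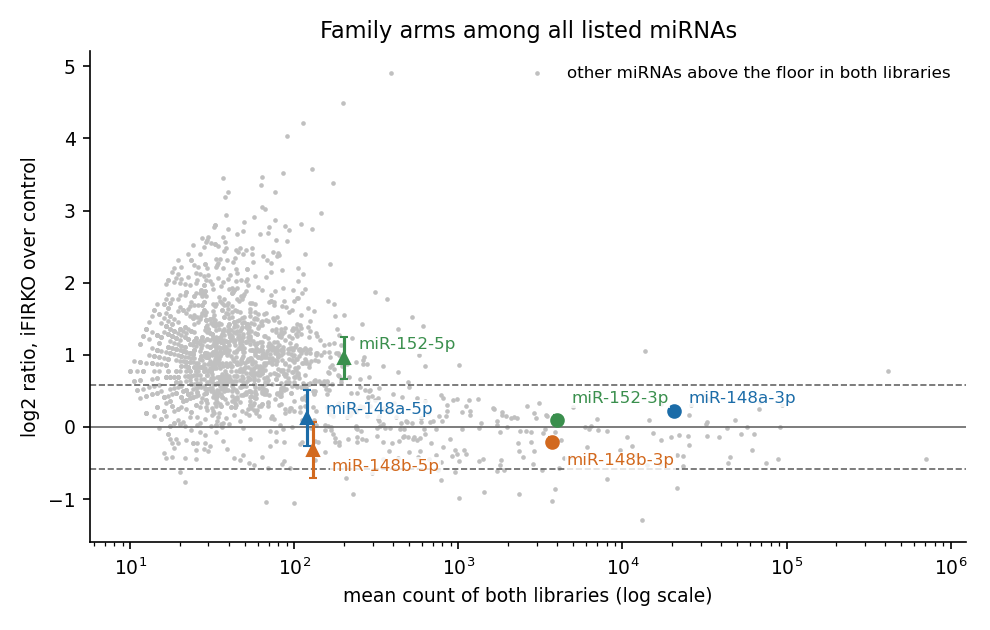
Log2 ratio of the iFIRKO-labelled library over the control-labelled library, on the deposited scale, against the mean count of both libraries (log axis) for miRNAs above the floor in both. Coloured symbols are the family arms (circles 3p, triangles 5p) with 95% counting intervals, dashed lines mark 1.5-fold, and of the family arms only miR-152-5p at 0.96 lies beyond them, which it does not with TMM scaling.

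The ratio of the arms within a hairpin is a measure that the scaling does not touch. In the control-labelled library miR-148a had 168 counts of the 3p arm per count of the 5p arm (143 to 199), and in the iFIRKO-labelled library it had 180 (147 to 223). Of 610 hairpins with both arms above the floor in both libraries, 9 had a larger ratio of 3p to 5p counts in the control-labelled library and 5 in the iFIRKO-labelled library. The median over these hairpins was 0.847 and 0.928. Over the 41 of them whose 3p arm had a mean count of at least 1000, a closer background, it was 31.4 and 20.8. The arm ratio of miR-148a differed between the libraries by a factor of 1.07 (0.818 to 1.40), which is within counting error.

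For miR-148b the ratio of 3p to 5p counts was 27.9 (24.0 to 32.6) in the control-labelled library and 30.1 (24.2 to 37.9) in the iFIRKO-labelled library, a factor of 1.08 (0.821 to 1.42). miR-152 began at a similar ratio of 26.2 (22.6 to 30.5) but had 14.4 (12.5 to 16.6) in the iFIRKO-labelled library, a factor of 0.549 (0.446 to 0.675). The 5p arm thus made up 3.68% of the miR-152 counts in the control-labelled library and 6.50% in the iFIRKO-labelled library. With 1 CPM added to every arm the miR-152 ratios were 25.7 and 14.2. The 41 hairpins with an abundant 3p arm had medians of 31.4 and 20.8. Against these miR-148b was lower in the control-labelled library and higher in the iFIRKO-labelled library, and miR-152 was lower in both.

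Other hairpins with an abundant arm showed such a difference too. Of 84 hairpins with an arm of a mean count of at least 1000, 60 had a smaller ratio of the major to the minor arm in the iFIRKO-labelled library, with a median factor of 0.807. The factor of 19 of these 84 hairpins was smaller than that of miR-152. Among the 36 hairpins whose major arm is the 3p arm, as in this family, 25 had a smaller ratio, with a median factor of 0.797, and 8 had a factor smaller than that of miR-152. The minor arms of this family are of low abundance, and low-abundance miRNAs had larger ratios as a whole in these libraries. The part of abundance in the arm ratio of miR-152 was not tested.

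**Figure D4:**
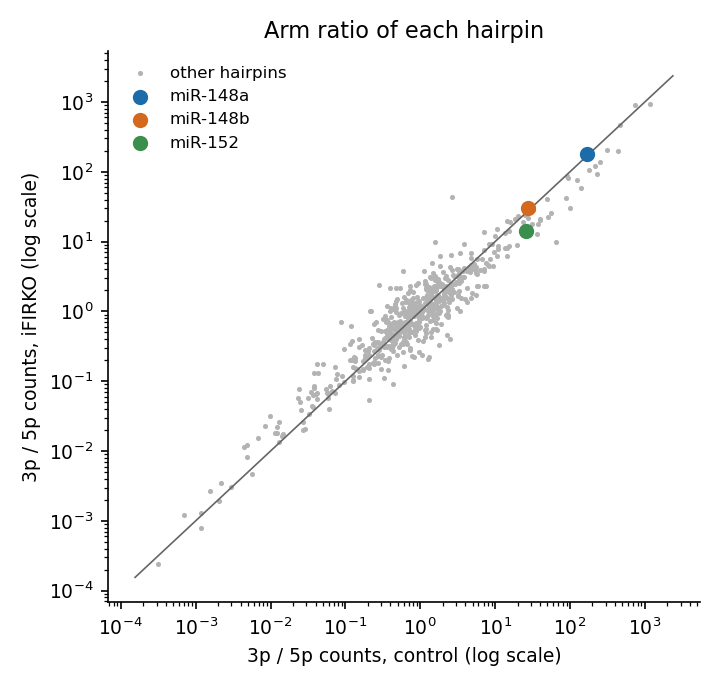
Count of the 3p arm over count of the 5p arm for each of 610 hairpins, control-labelled library on the x axis and iFIRKO-labelled library on the y axis, both log scaled, with the line of equality. miR-148a (168 and 180) and miR-148b (27.9 and 30.1) lie at the line, and miR-152 (26.2 and 14.4) lies below it.

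The use of miR-148a-3p as the reference in the study raised the question of how its level compared with other candidates in the same libraries. The pairwise stability measure M of GeNorm was computed for the 118 abundant miRNAs as the mean SD of the log2 ratio of a miRNA to each other miRNA over the 2 libraries, where a low M means a stable miRNA. M was computed once over the full set. The stepwise removal of unstable miRNAs, by which GeNorm selects a reference, was not run. miR-148a-3p had an M of 0.285 and ranked 69 of 118 from the most stable. miR-148b-3p had an M of 0.230 (rank 34) and miR-152-3p 0.239 (rank 42). The median M was 0.261, the lowest was 0.214 (miR-10b-5p) and the highest 0.838 (miR-451a).

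The rank depended on which miRNAs entered the comparison. Over 419 miRNAs whose counts averaged 100 or more, miR-148a-3p ranked 25, with an M of 0.395 that equals the lowest value (let-7e-5p) at 3 significant digits, while miR-148b-3p ranked 240 and miR-152-3p 87. Over the 44 miRNAs whose counts averaged 10000 or more, miR-148a-3p ranked 28. The study ran GeNorm on its miRNA sequencing data, and which of the miRNAs entered is not given in the sources used here. With 2 libraries M measures only how far the ratio of a miRNA lies from the ratios of the others.

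A list of 12 miRNAs that are widely used as references in serum was set beside it. Their ratios ran from 0.733 (miR-16-5p) to 1.32 (miR-484), with a median of 1.03, and 3 of the 12 had a larger ratio than miR-148a-3p. Of the 11 with a mean count of at least 1000, 7 had a lower M than miR-148a-3p. The most stable of them were miR-26a-5p with a ratio of 0.945 (0.923 to 0.968) and let-7i-5p, whose ratio had an interval of 0.994 to 1.01. Scaling to miR-148a-3p brought the median ratio of the list to 0.881.

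**Figure D5:**
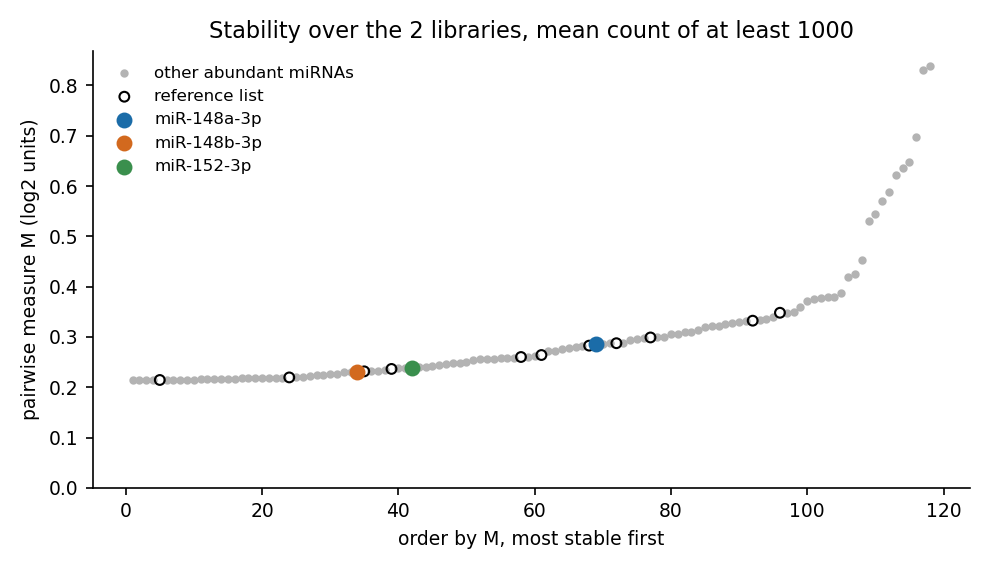
Pairwise measure M (log2 units) of the 118 abundant miRNAs (mean count of 1000 or more), in order from the most stable. Coloured points are the 3p arms of the family, with miR-148b-3p at rank 34, miR-152-3p at rank 42 and miR-148a-3p at rank 69, and open circles are the members of the reference list that reached this count.

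The 3 guide strands, although alike in sequence, gave different results when each was used as the reference. On the deposited scale 3 of the 118 abundant miRNAs were over 1.5-fold higher and 11 over 1.5-fold lower in the iFIRKO-labelled library. Scaled to miR-148a-3p, 2 were higher and 33 lower. Scaled to miR-152-3p, 3 were higher and 19 lower, and scaled to the sum of the 3p arms, 3 were higher and 25 lower. Scaled to miR-148b-3p, 8 were higher and 7 lower. The erythroid miR-451a was below 1 with each reference, at 0.351 with miR-148a-3p, 0.382 with miR-152-3p and 0.474 with miR-148b-3p. As labelled this is opposite to the direction that the study describes by RT-PCR with the same reference, and with exchanged labels the ratio to miR-148a-3p would be 2.85. The hepatocyte miR-122-5p was above 1 with each, at 1.47, 1.60 and 1.98 in the same order.

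Markers of cells that release EVs into blood were examined beside the family, since miR-148a is abundant in liver. All 4 hepatocyte miRNAs of the list (miR-122-5p, miR-122-3p, miR-192-5p and miR-194-5p) were higher in the iFIRKO-labelled library on the deposited scale, from 1.35 to 1.71, and their summed level went from 120576 to 201930 CPM. Most of that sum was miR-122-5p, at 109463 and 186751 CPM. On the deposited scale 1627 of the 1847 listed miRNAs were higher and 220 lower. Of the 118 abundant miRNAs 48 were higher and 70 lower. miR-122-3p rested on 129 and 102 counts, with an interval of the ratio of 1.03 to 1.77. The ratio of 1.16 of miR-148a-3p lay below all 4, but within the interval of miR-122-3p. With the median of ratios, which divides ratios by 1.20, all 4 stayed above 1. With TMM scaling, which divides ratios by 1.81, all 4 were below 1. All 5 erythroid miRNAs (miR-451a, both arms of miR-144 and both arms of miR-486a) were lower, from 0.409 to 0.760, and their summed level went from 14121 to 7982 CPM. These 5 ratios stayed below 1 with the median of ratios and with TMM scaling. The study describes miR-451a, miR-144-3p and miR-486a-3p as higher in iFIRKO serum EVs by sequencing and RT-PCR. With exchanged labels the deposited ratios of these miRNAs would be 2.45, 1.97 and 1.82. Of 3 miRNAs of the exocrine pancreas, miR-216b-5p was at the floor in the control-labelled library. The others, miR-216a-5p and miR-217-5p, were above it in both libraries, with deposited ratios of 1.53 and 1.69. Both ratios stayed above 1 with the median of ratios and were below 1 with TMM scaling. The 439 miRNAs within 2-fold of miR-148a-5p in mean count, among them both of these and miR-122-3p, had a median ratio of 1.88. The part of these cell types in the levels of the family was not tested.

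The miRNAs nearest to the guide strands in level were found by the distance in log2 level over the 2 libraries. For miR-148a-3p the 5 nearest were miR-146a-5p (distance 0.25), miR-1a-3p (0.29), miR-342-3p (0.37), let-7a-5p (0.42) and miR-23a-3p (0.43). The ratios of miR-342-3p (1.25) and let-7a-5p (1.13) were above 1 on the deposited scale, as was that of miR-148a-3p, and those of the other 3 were below 1. For miR-148b-3p the nearest were miR-142b (0.037), miR-10b-5p (0.16) and miR-101a-3p (0.20). For miR-152-3p they were miR-103-3p (0.073), miR-10b-5p (0.14) and miR-140-5p (0.20). A likeness over 2 libraries describes little more than a like level.

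Other miRNAs that share part of the family seed were searched for among 1679 mature RefSeq sequences, which cover 1596 of the 1858 miRNA names in the tables. Beside the family, 0 had the same bases 2 to 8. The closest abundant relative carries AGUGCA, the bases 3 to 8 of the family seed, at its own bases 2 to 7, which is seen when it is set beside miR-148a-3p.
mmu-miR-130a-3p: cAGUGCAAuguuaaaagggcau

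Among the names with a sequence there were 7 such offset miRNAs. Their summed levels were 1221 CPM in the control-labelled library and 1213 CPM in the iFIRKO-labelled library. Names without a sequence were not searched, so the number and the sums are lower bounds. miR-130a-3p, the only one of them with a mean count of at least 1000, had 2652 and 1701 counts, a ratio of 1.10 (1.03 to 1.17) as deposited, which the median of ratios and TMM scaling place below 1. miR-1960 shared the bases 2 to 7 and miR-291b-3p and miR-350-5p the bases 3 to 8, each with a mean count under 100. The 3p sum of the family of 9001 CPM in the control-labelled library thus exceeded these 7 offset miRNAs together.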

How the data were processed

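Serum EV RNA (miRNeasy Micro Kit) was made into libraries with the QIAseq miRNA Library Kit, sequenced on a NextSeq500 and analysed by the authors on the GeneGlobe Data Analysis Center. Per the labels mm10 is listed as the genome build, and the aligner, the miRNA annotation and the use of molecular identifiers are not given in the sources used here. The authors deposited a normalized signal for 1847 miRNAs. Multiplied by 1 constant per library, taken as the depth, 100.0% of these values came out as whole counts (within 0.1), and no count from 2 to 9 occurred, so the lowest value is a floor for counts under 10. The signal not listed was 0.676% and 0.907% of the depth.

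Ratios were computed from the recovered counts with Clopper-Pearson intervals (95%, scipy 1.17.1). The intervals were run on simulated Poisson counts, the model they assume, which checks the computation and not how well the model holds here. Whether the counts are of reads or of molecular identifiers is not given in the sources used here. Reads would not be independent molecules, so intervals cover counting error only. No count test was run because each group had 1 library. Alternatives used TMM factors (edgeR 4.0.16, R 4.3.3), the median of ratios over miRNAs whose counts averaged 100 or more, listed totals, 1 CPM added and other limits. Hairpins were located in GENCODE M21 (GRCm38). All 6 members were named by rule, as were the 5 or 3 nearest in level. The members, the reference list and the marker lists were chosen with earlier results of these data known.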

Additional observations from a re-analysis of the deposited data

How the results depend on the processing

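Leaving out a replicate could not be done. No paired analysis was possible because there was just 1 library in each arm. Of the ratios, those of miR-148a-3p (0.968 and 0.644), miR-148a-5p (0.906 and 0.602), miR-152-3p (0.889 and 0.591) and the sum of 3p arms (0.921 and 0.613) fell below 1 with the median of ratios and with TMM scaling, respectively. These scalings divide every ratio by 1.20 and 1.81, and the deposited ratios of these arms and of the sum were above 1 but below both divisors. Listed totals and 1 CPM added kept the ratio of each arm and of the sum within its counting interval. The number of family arms over 1.5-fold higher was 0 with TMM scaling and 0 with a 2-fold threshold, and the number lower was 1 with the median of ratios and 5 with TMM scaling. The rank of miR-148a-3p by M was 25 with a mean count of at least 100 and 28 with at least 10000, over different numbers of miRNAs. Of all miRNAs, in place of 1225, 388 were higher with TMM scaling, 794 with a 2-fold threshold and 145 with a mean count of at least 100. In place of 56 lower miRNAs there were 113 with the median of ratios, 360 with TMM scaling, 24 with a mean count of at least 10 and 18 with at least 100. Depth limits the 5p arms most, since they rest on 83 to 213 counts.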
